A study of Mus musculus with 13 samples.

Results

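Stab1, Stab2, Lyve1, Clec4g, Gpr182, Oit3, Kdr, Pecam1, Vwf and Cd34 are 10 genes of the endothelium that lines the sinusoids and the larger vessels of the liver. They were chosen by name as known endothelial genes and made up 10 of the 53465 genes counted in mouse liver by RNA sequencing. The study asked whether Nod2, an intracellular sensor of bacterial peptidoglycan, affects liver cancer in obese mice, and compared wild-type (WT) with Nod2-/- animals. Both groups were male BALB/c mice that received the carcinogen DMBA as pups and then a high fat diet, and the labels give an age of 30 weeks for every mouse. The comparison rests on 6 WT and 7 Nod2-/- animals, each sequenced as 1 library of liver RNA, and all 13 carried the label cancer. That label does not show which of these mice had liver tumors. How much tumor tissue each piece of liver held is not given in the sources used here, and it may differ between the genotypes. The deletion of Nod2 is present in the whole body, and the WT mice were not littermates, although all mice lived in the same room. Depth was 14886273 to 20579984 counts per WT library (median 16964780) and 13824780 to 19391431 counts per Nod2-/- library (median 15618467).

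Nod2 itself was close to the limit of detection in whole liver. WT replicates 1 to 6 had 4, 1, 3, 2, 0 and 3 counts, and Nod2-/- replicates 1 to 7 had 2, 2, 6, 1, 5, 1 and 4 counts. These counts were too few to check the genotype labels.

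Sinusoidal endothelial cells have open pores grouped in sieve plates and no continuous basement membrane, and they clear waste macromolecules from the blood through scavenger receptors. In chronic liver injury they can lose the pores and take on features of continuous capillaries, a change known as capillarization, in which Cd34 and Vwf are among the markers gained. Pecam1 and Kdr are made by most blood endothelium, while Vwf belongs mainly to larger vessels and is also made by megakaryocytes.

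The endothelial genes were present in every liver, with at least 22 counts for each gene in each mouse, and all 10 passed the filter on low counts. Their levels are given in CPM, counts scaled to a common library size. In Nod2-/- mice 9 of the 10 had the higher fitted level and Stab2 the lower, with a median log2 fold change (Nod2-/- over WT) of 0.32 beside 0.02 for all 13545 genes tested. The largest differences were in Vwf, Lyve1, Cd34, Pecam1 and Stab1, whereas Stab2, Clec4g, Kdr and Oit3 differed least. In edgeR, 0 of the 10 passed a false discovery rate of 5%, a rule that 157 of the 13545 genes passed (1.16%), 88 higher and 69 lower in Nod2-/- mice. At an unadjusted p under 0.05 there were 3 of the 10, Stab1, Pecam1 and Vwf, beside 23.1% of all genes tested. DESeq2 called 2 of the 10, Pecam1 and Vwf, beside 7.26% of 15892 genes, and limma voomWithQualityWeights called 3, Stab1, Pecam1 and Vwf, beside 6.22% of 13545 genes. When WT replicate 3 was left out, edgeR called 4 of the 10, Stab1, Pecam1, Vwf and Cd34, beside 8.49% of 13611 genes, so that the share called was larger among all genes too. In the 12 other fits without 1 mouse, Vwf was called without WT replicate 6 and without Nod2-/- replicates 1, 2 and 3, and 0 of the 10 were called in the remaining 8. The total of 157 genes depended on single mice as well: it was 1156 without WT replicate 3, 41, 45, 42 and 52 without WT replicates 1, 2, 4 and 5, and 67, 81 and 54 without Nod2-/- replicates 4, 6 and 7. In the other fits that called Vwf, the total was 146 of 13668 genes without WT replicate 6. Without Nod2-/- replicates 1, 2 and 3 it was 215 of 13474, 146 of 13444 and 223 of 13440. It was 171 of 13430 without Nod2-/- replicate 5, where Vwf was not called. The WT and Nod2-/- values overlapped for all 10 genes. Of the 13545 genes tested, 102 (0.753%) were higher in Nod2-/- mice without any overlap and 93 were lower without any overlap. In whole liver, a different number of endothelial cells and a different amount of RNA per cell cannot be told apart.

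**Figure D1:**
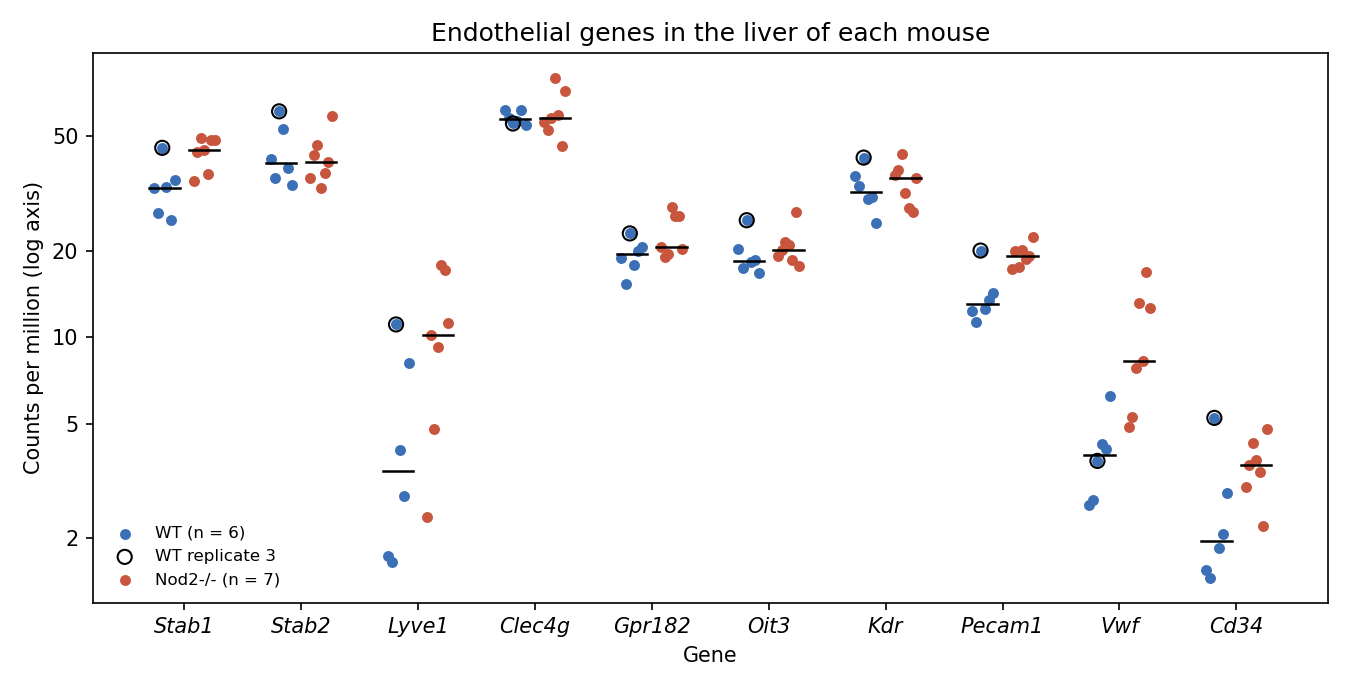
Levels in CPM (log axis) of the 10 endothelial genes in each of 6 WT and 7 Nod2-/- livers, with 1 point per mouse, a black line at the median of the genotype and an open ring around WT replicate 3. The ringed mouse is the highest of the WT mice in 8 of the 10 genes, and the genotypes overlap in all 10.

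Stab1 and Stab2 encode stabilin-1 and stabilin-2, related scavenger receptors with which sinusoidal endothelium takes up hyaluronan fragments, modified lipoproteins and other waste. Stab1 was at 25.6 CPM in the lowest WT mouse, 33.1 at the median and 45.6 in the highest, and at 35.0, 44.9 and 49.3 CPM in Nod2-/- mice. Replicates 3, 6 and 7 of the Nod2-/- mice were above all WT mice and 4 WT mice were below all Nod2-/- mice, so the overlap came from WT replicates 3 and 6 and the lower Nod2-/- mice. Stab1 had a log2 fold change of 0.40 (SE 0.13, adjusted p = 0.104 in edgeR, 95% interval 0.12 to 0.68). The two-sided exact permutation test over the 1716 ways to divide the 13 mice gave p = 0.0152, unadjusted, where the smallest p it can give is 0.000583. In edgeR, WT replicate 3, the highest WT mouse, decided the call: without it the log2 fold change was 0.50 (SE 0.11, adjusted p = 0.0257). The call depended on the method too, as voom called Stab1 with all mice included (adjusted p = 0.0419). Over 26 alternative fits Stab1 was higher in Nod2-/- mice in all 26 and past the threshold in 3, with adjusted p from 0.0257 to 0.433.

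Stab2 gave no such difference. Its level was 33.8 CPM in the lowest WT mouse, 40.3 at the median and 61.0 in the highest, and 33.0, 40.6 and 58.9 CPM in Nod2-/- mice. The medians were nearly the same, and the highest mice were WT replicates 3 and 4 (61.0 and 53.2 CPM) and Nod2-/- replicate 7. For Stab2 the log2 fold change was -0.06 (SE 0.16, adjusted p = 0.842), with a 95% interval from -0.40 to 0.28 that leaves room for a moderate difference in either direction. Leaving out WT replicate 3 turned the sign, to 0.04. Whether the fold changes of Stab1 and Stab2 differ from each other was not tested.

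Lyve1, a hyaluronan receptor of sinusoidal and lymphatic endothelium, varied most among mice of the 10 genes. Its WT levels ran from 1.65 CPM through a median of 3.42 to 11.1, and its Nod2-/- levels from 2.36 CPM through 10.2 to 17.8. WT replicates 3 and 6 had high values among low ones, Nod2-/- replicates 1 and 3 had low values among high ones, and 3 Nod2-/- mice were above all WT mice. Its log2 fold change was 1.07 (SE 0.50, adjusted p = 0.219), and the exact permutation p was 0.0758. The SD of its log2 CPM was 1.11 in WT and 1.02 in Nod2-/- mice, against 0.08 and 0.26 for Clec4g. Lyve1 did not pass the threshold in any of the 26 alternatives, where its log2 fold change ran from 0.86 to 1.47 and its adjusted p from 0.0799 to 0.452.

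Clec4g, the C-type lectin LSECtin of sinusoidal endothelium, had the smallest SD of log2 CPM of the 10 genes in WT liver. WT mice had 54.6, 57.2 and 61.9 CPM as lowest, median and highest level, and Nod2-/- mice 46.4, 57.9 and 79.7 CPM. The Nod2-/- mice spread to both sides of the WT range, with replicates 4 and 7 above it and replicates 2 and 6 below it. Clec4g had a log2 fold change of 0.06 (SE 0.11, adjusted p = 0.767, 95% interval -0.17 to 0.30). Its sign turned in 4 of the 26 alternatives.

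Gpr182, an atypical receptor that binds chemokines and is typical of sinusoidal and lymphatic endothelium, was at 15.3, 19.4 and 22.9 CPM as lowest, median and highest WT level. The Nod2-/- levels were 19.0, 20.6 and 28.4 CPM. Nod2-/- replicates 4, 5 and 6 stood above every WT mouse, and the other 4 lay within the WT range. Gpr182 had a log2 fold change of 0.25 (SE 0.12, adjusted p = 0.234), and the exact permutation p was 0.0769. Oit3, which encodes a secreted or membrane-bound protein with a zona pellucida domain, had WT levels of 16.7 to 25.5 CPM and Nod2-/- levels of 17.7 to 27.2 CPM. Its genotypes overlapped almost fully, and the log2 fold change was 0.09 (SE 0.12, adjusted p = 0.667, 95% interval -0.16 to 0.34). Neither gene passed the threshold in any of the 26 alternatives.

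Kdr encodes VEGF receptor 2, the main signaling receptor for VEGF-A on endothelium. WT mice had 24.9 CPM at the lowest, 32.1 at the median and 42.1 at the highest, and Nod2-/- mice 27.2, 35.8 and 43.4 CPM. Both genotypes had a high replicate 3 and a low replicate 6, and only 1 Nod2-/- mouse was above all WT mice. The log2 fold change was 0.06 (SE 0.13, adjusted p = 0.808, 95% interval -0.22 to 0.34), with the opposite sign in 3 of the 26 alternatives. Kdr and Stab2, a VEGF receptor and a scavenger receptor of the same sinusoidal cells, thus both had intervals on either side of 0.

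Pecam1 (CD31), a junctional adhesion molecule of all endothelium and of platelets and some leukocytes, had 11.2 CPM in the lowest WT mouse, 13.01 at the median and 20.003 in the highest. The Nod2-/- mice had 17.2, 19.2 and 22.3 CPM. All WT mice except replicate 3 lay below every Nod2-/- mouse, and replicate 3 lay among the Nod2-/- mice. The log2 fold change was 0.46 (SE 0.12, adjusted p = 0.0662 in edgeR, 95% interval 0.20 to 0.73), and the exact permutation p was 0.00524. Without WT replicate 3 it was 0.58 (SE 0.09, adjusted p = 0.00653). DESeq2 and voom called Pecam1 with all mice included, with adjusted p of 0.0169 and 0.0156. It was higher in Nod2-/- mice in all 26 alternatives and past the threshold in 4, with adjusted p from 0.00653 to 0.357.

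Vwf, which encodes von Willebrand factor, the carrier of clotting factor VIII that tethers platelets, had the largest fold change of the 10 genes. It was at 2.60 CPM in the lowest WT mouse, 3.89 at the median and 6.22 in the highest, and at 4.85, 8.27 and 16.8 CPM in Nod2-/- mice. Nod2-/- replicates 3 to 7 were above every WT mouse, Nod2-/- replicates 1 and 2 were the low ones, and WT replicate 6 alone reached into their range. The log2 fold change was 1.32 (SE 0.30, 95% interval 0.67 to 1.96), and the adjusted p of 0.0512 in edgeR missed the threshold by a small margin, at place 162 of the 13545 genes ordered by p. The exact permutation p was 0.00408, unadjusted. The call depended on single mice: adjusted p was 0.0357 without WT replicate 3, 0.0423 without WT replicate 6, and 0.0336, 0.0437 and 0.0499 without Nod2-/- replicates 1, 2 and 3. In the other 8 fits without 1 mouse it lay between 0.0533 and 0.136. DESeq2 gave an adjusted p of 0.00188 and voom 0.0464, and over the 26 alternatives the range was 0.00188 to 0.264, with Vwf higher in Nod2-/- mice in all 26 and past the threshold in 9. Nod2-/- replicates 4, 6 and 7 were highest in Vwf (13.1, 16.8 and 12.6 CPM). Of the erythroid genes, these mice had the lowest Alas2 of all mice (77.3, 83.7 and 78.9 CPM). They also had the highest Hbb-bs (635, 432 and 822 CPM). A link of Vwf with these genes was not tested.

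Cd34, a sialomucin of capillary endothelium and blood progenitors that is low in normal sinusoids, had few counts. WT mice had 1.45 CPM at the lowest, 1.96 at the median and 5.23 at the highest, and Nod2-/- mice 2.20, 3.59 and 4.79 CPM. WT replicate 3 was above all other mice of both genotypes, while 4 WT mice were below every Nod2-/- mouse. For Cd34 the log2 fold change was 0.50 (SE 0.29, adjusted p = 0.308), and the exact permutation p was 0.0629. Without WT replicate 3 it was 0.85 (SE 0.22, adjusted p = 0.0377), the only 1 of the 26 alternatives past the threshold, in which adjusted p ran from 0.0377 to 0.723.

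**Figure D2:**
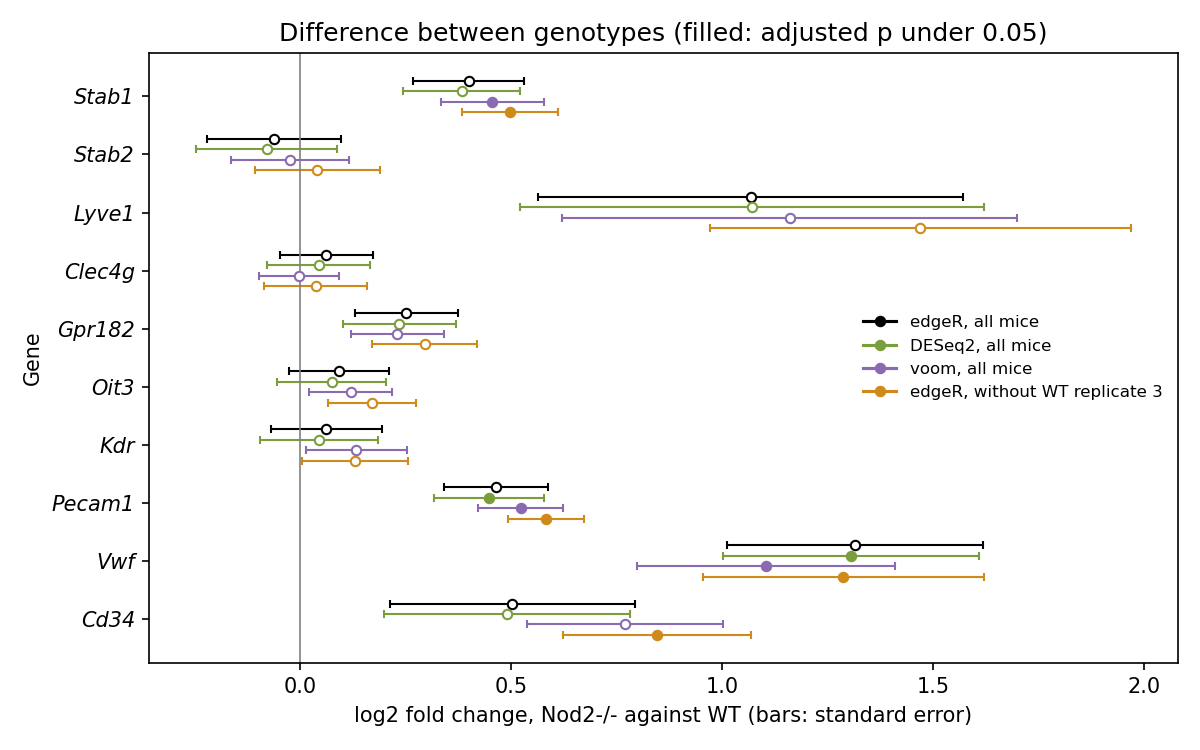
The log2 fold change of Nod2-/- over WT (x axis) for each of the 10 genes (y axis), with bars of 1 standard error, from edgeR, DESeq2 and voom with all 13 mice and from edgeR without WT replicate 3, with filled points where the adjusted p is under 0.05. Vwf and Lyve1 have the largest values (1.32 and 1.07 in edgeR), Stab2, Clec4g, Kdr and Oit3 lie near 0, and edgeR with all mice has 0 filled points.

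The genes also differed among themselves in level. Per kilobase of exon, the order in WT mice was Clec4g (mean 23.5 CPM per kb), Oit3 (6.98), Stab2 (5.03), Gpr182 (4.87), Kdr (3.65), Stab1 (3.23), Pecam1 (2.24), Lyve1 (1.68), Cd34 (0.343) and Vwf (0.244). Clec4g was above Oit3 in all 6 WT mice, and Lyve1 was above Cd34 in all 6. Stab2 exceeded Gpr182 in 4 of 6 WT mice and Pecam1 exceeded Lyve1 in 4 of 6, so these neighbors did not differ beyond their spread. Kdr exceeded Stab1, and Cd34 exceeded Vwf, in 5 of 6. In Nod2-/- mice the order was Clec4g (24.6 CPM per kb), Oit3 (7.44), Gpr182 (5.79), Stab2 (4.81), Stab1 (4.27), Kdr (3.81), Lyve1 (3.56), Pecam1 (3.10), Vwf (0.611) and Cd34 (0.489). Only Clec4g and Oit3 kept their places, and the other 8 genes traded places within 4 neighboring pairs. Vwf was above Cd34 in 4 of the 7 Nod2-/- mice, and Stab1 was above Kdr in 5 of the 7. The markers of capillarized or larger vessels, Vwf and Cd34, were thus the lowest of the 10 in both genotypes.

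Summed over the 10 genes, the level was 204 CPM in the lowest WT mouse, 224 at the median and 293 in the highest, and 231, 272 and 304 CPM in Nod2-/- mice. The WT sum was highest in replicate 3 and lowest in replicate 2. Among Nod2-/- mice, replicate 7 had the highest sum and replicate 1 the lowest. Of the WT mice, 4 were below every Nod2-/- mouse, and 1 Nod2-/- mouse was above every WT mouse. Clec4g, Stab2, Stab1 and Kdr supplied most of this sum, so the 2 genes with the largest fold changes, Vwf and Lyve1, had little weight in it.

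The same mice tended to be high or low in several of the genes. WT replicate 3 was the highest WT mouse in 8 of the 10 genes, with Clec4g (highest in WT replicate 1) and Vwf (highest in WT replicate 6) as the exceptions. WT replicates 2 and 6 were each the lowest WT mouse in 4 genes. Nod2-/- replicate 1 was the lowest Nod2-/- mouse in Stab1, Lyve1, Pecam1 and Vwf. After the mean of each genotype was subtracted from log2 CPM, 37 of the 45 pairs of genes had a Pearson r above 0 over the 13 mice, with a median of 0.31. The closest pair was Pecam1 and Cd34 (r = 0.85) and the most opposed was Kdr and Vwf (r = -0.60). Without WT replicate 3 the median was 0.20 and the r of Pecam1 and Cd34 was 0.61 over 12 mice. With the mean of the 10 genes, the r was 0.90 for Pecam1, 0.87 for Lyve1, 0.81 for Stab1, 0.75 for Cd34, 0.63 for Vwf, 0.61 for Gpr182, 0.54 for Stab2, 0.47 for Oit3, 0.06 for Clec4g and -0.01 for Kdr. Each gene is part of that mean, the genes with the widest spread weigh most in it, and all points share the library of their mouse and its scaling. The r of Kdr with single genes of the 10 ran from -0.60 (Vwf), -0.42 (Gpr182) and -0.37 (Lyve1) to 0.40 (Cd34) and 0.54 (Stab2).

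**Figure D3:**
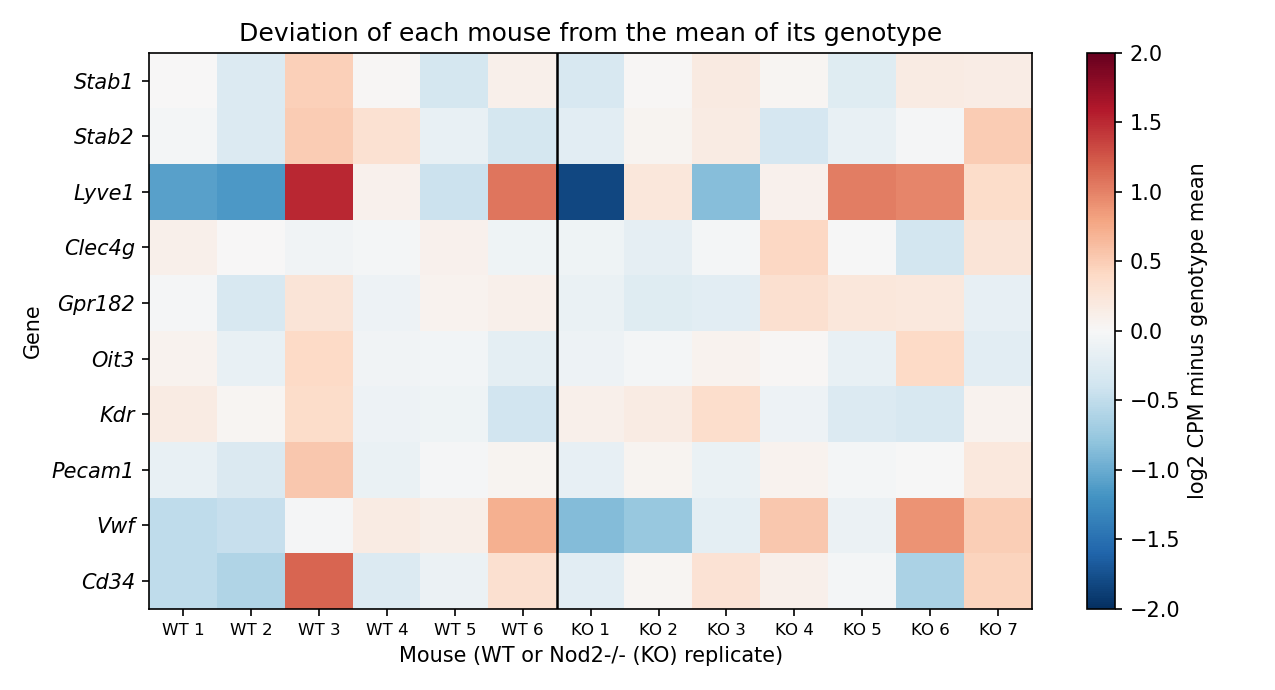
The log2 CPM of each of the 10 genes (vertical) in each mouse (horizontal) minus the mean of its genotype, on a color scale from -2 to 2, with WT mice left and Nod2-/- mice right of the line. WT replicate 3 is above its genotype mean in most genes, and Lyve1 has the widest spread.

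Among the 13535 other genes tested, those most like the mean of the 10 over the 13 mice were Pld3 (r = 0.96), Slfn5 (0.90), Ly6e (0.89), Vopp1 (0.89) and Ptpn13 (0.88), beside a median r of 0.03. Without WT replicate 3 their r was 0.93, 0.83, 0.80, 0.91 and 0.78. These 5 were picked as the highest of many, so their r is a description of these mice.

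The 10 genes lie on 8 chromosomes, with Stab2, Gpr182 and Oit3 on chromosome 10 and the others on a chromosome each. Stab1 lies on chromosome 14, where 23 of 469 genes tested passed the threshold (4.90%) beside 1.02% elsewhere. Of the 44 genes tested within 2 Mb of Stab1, 0 passed in edgeR. Clec4g shares chromosome 8 with Nod2, at a distance of 84.9 Mb. Stab1 overlaps Nt5dc2 on the opposite strand over 112 of its 10288 exonic bases, and Gpr182 overlaps Zbtb39 over 74 of 3954. Nt5dc2 had 1652 counts over all mice beside 8435 for Stab1, and Zbtb39 had 2349 beside 4593 for Gpr182. Stab2, Clec4g and Cd34 share 141, 146 and 148 exonic bases with antisense genes that had 1, 2 and 11 counts over all mice.

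Promoters of the 10 genes, where a window was at hand, were searched for the letters of endothelial transcription factor motifs. RefSeq promoter windows (GRCm38.p6, 250 bases before to 50 bases after the start) were matched for 5 of the 10 genes. AGATAA, a motif of GATA factors, was in 0 of the 5 windows on either strand, and in 11.2% of all 32851 promoters of 300 bases. Of the ETS factor motifs, CCGGAA was in the Kdr window alone (14.9% of all promoters), and AGGAAG was in the windows of Stab1, Stab2, Clec4g and Cd34 (35.4% of all promoters). Clec4g had 3 matches to AGGAAG, 2 of which overlap, and all matches lay before the start. Capitals mark the ETS motif as read on the printed strand, where CTTCCT and TTCCGG are AGGAAG and CCGGAA of the other strand. The windows are shown for the genes matched, Stab1 (chr14:31168592-31168891, minus strand), Stab2 (chr10:87007893-87008192, minus), Clec4g (chr8:3720602-3720901, minus), Kdr (chr5:75978406-75978705, minus) and Cd34 (chr1:194938571-194938870, plus). A match to these letters does not show that a factor binds there.
Stab1: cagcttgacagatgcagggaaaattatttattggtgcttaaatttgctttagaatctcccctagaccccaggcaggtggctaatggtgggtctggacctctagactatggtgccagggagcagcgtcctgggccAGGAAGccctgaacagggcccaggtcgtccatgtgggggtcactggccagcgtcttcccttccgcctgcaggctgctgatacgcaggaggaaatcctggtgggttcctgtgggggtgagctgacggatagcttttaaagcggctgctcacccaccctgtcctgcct
Stab2: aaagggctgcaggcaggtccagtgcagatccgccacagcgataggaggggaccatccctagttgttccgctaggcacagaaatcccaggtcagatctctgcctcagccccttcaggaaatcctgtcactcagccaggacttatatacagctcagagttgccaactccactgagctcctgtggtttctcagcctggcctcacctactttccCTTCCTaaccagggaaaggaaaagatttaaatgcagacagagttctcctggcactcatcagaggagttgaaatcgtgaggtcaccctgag
Clec4g: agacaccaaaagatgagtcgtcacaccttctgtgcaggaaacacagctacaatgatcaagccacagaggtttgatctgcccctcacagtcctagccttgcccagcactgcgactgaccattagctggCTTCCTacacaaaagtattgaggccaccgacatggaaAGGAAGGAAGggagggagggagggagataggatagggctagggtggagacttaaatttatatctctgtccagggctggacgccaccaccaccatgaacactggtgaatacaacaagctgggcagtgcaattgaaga
Kdr: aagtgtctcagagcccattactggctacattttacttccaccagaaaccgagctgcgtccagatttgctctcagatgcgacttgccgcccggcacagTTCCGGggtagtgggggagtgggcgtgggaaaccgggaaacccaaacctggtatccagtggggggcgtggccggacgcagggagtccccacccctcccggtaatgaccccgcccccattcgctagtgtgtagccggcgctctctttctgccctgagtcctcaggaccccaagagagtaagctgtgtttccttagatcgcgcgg
Cd34: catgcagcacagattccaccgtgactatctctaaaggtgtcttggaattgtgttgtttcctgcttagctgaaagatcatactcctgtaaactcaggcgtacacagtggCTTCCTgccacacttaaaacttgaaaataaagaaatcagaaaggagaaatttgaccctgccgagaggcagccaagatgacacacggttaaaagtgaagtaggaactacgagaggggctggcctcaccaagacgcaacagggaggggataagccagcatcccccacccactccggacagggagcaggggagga

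Other genes of the same vessels were taken from lists by cell type. In every list, tested means tested in edgeR after its filter on low counts. DESeq2 applied its own filter, so it could call list genes that edgeR did not test. Of 20 other sinusoidal genes, 18 were tested, 14 higher and 4 lower in Nod2-/- mice, with a median log2 fold change of 0.12. The only 1 of them past the threshold was Flt4, the VEGF-C receptor, at 15.3, 17.98 and 26.5 CPM in WT mice and 23.5, 29.8 and 37.8 in Nod2-/- mice. WT replicate 3 alone reached into the Nod2-/- range of Flt4. It rose by a log2 fold change of 0.69 (SE 0.15, adjusted p = 0.0422), but the call held in 5 of the 13 fits without 1 mouse (without WT replicate 3 and without Nod2-/- replicates 1, 3, 5 and 6) and was lost in the other 8, with adjusted p from 0.0544 to 0.111. Ctsl, the most abundant of the list, had a log2 fold change of 0.35 (adjusted p = 0.340), and Gata4, a transcription factor of sinusoidal identity, -0.36 (adjusted p = 0.127). DESeq2 called 2 genes of this list, voom 1, and edgeR without WT replicate 3 called 2. The summed level ran from 928 to 1232 CPM in WT and from 967 to 1818 in Nod2-/- mice, highest in Nod2-/- replicate 6. Ctsl alone had 1399 CPM in that mouse and 845 CPM or less in the other Nod2-/- mice. The rank of that mouse thus rests on Ctsl, which ran from 493 to 860 CPM in WT mice.

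Genes shared by all endothelium, as Pecam1 is, were mostly higher in Nod2-/- mice. Of 24 pan-endothelial genes, all tested, 21 were higher in Nod2-/- mice and 12 had an unadjusted p under 0.05, all of them higher, while 52.3% of all 13545 genes tested were higher and 1743 were higher at an unadjusted p under 0.05. Of the 24, 0 passed the threshold in edgeR, 3 in DESeq2, 6 in voom and 6 in edgeR without WT replicate 3. Of all genes tested, 1.16%, 7.26%, 6.22% and 8.49% passed in these fits, which is the background for every list. The median log2 fold change of the 24 was 0.35. Sox18, an endothelial transcription factor, was higher in all 7 Nod2-/- mice than in every WT mouse (log2 fold change 0.68, SE 0.16, adjusted p = 0.0511). Eng, the most abundant, had -0.04, and Sox7 -0.26. Their sum was 217 to 273 CPM in WT, again highest in replicate 3, and 252 to 315 in Nod2-/- mice, and the r of their mean log2 CPM with that of the 10 genes was 0.78 over 13 mice and 0.53 without WT replicate 3.

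Markers of continuous, arterial and venous endothelium, the class of Vwf and Cd34, had higher medians than the sinusoidal list. Of 18 genes of continuous or capillarized endothelium, 16 were tested and 15 were higher, with a median of 0.57. In that list 0 passed in edgeR (7 higher and 1 lower at an unadjusted p under 0.05), 3 in DESeq2, 3 in voom and 4 in edgeR without WT replicate 3. Mcam had a log2 fold change of 0.72 (adjusted p = 0.0723), Nid1, a basement membrane protein and the most abundant, 0.79 (adjusted p = 0.418), and Sparcl1 -0.63 (adjusted p = 0.120). Nid1 reached 106 CPM in WT replicate 3 against a WT median of 16.3, and without that mouse its log2 fold change was 1.81 (adjusted p = 0.0242). The summed level of the list was 112 to 333 CPM in WT, highest in replicate 3, and 218 to 388 in Nod2-/- mice. Of 15 arterial and venous genes, 13 were tested and all 13 were higher, with a median of 0.51 (7 at an unadjusted p under 0.05). There 0 passed in edgeR, 2 in DESeq2, 2 in voom and 3 in edgeR without WT replicate 3. Gja5, an arterial gap junction protein, had a log2 fold change of 1.37 (adjusted p = 0.0576), and Ephb4, a venous receptor and the most abundant, 0.23. The summed arterial and venous level was 69.2 to 93.3 CPM in WT and 82.4 to 132 in Nod2-/- mice, with 6 of 7 Nod2-/- mice above every WT mouse. The r of the mean log2 CPM of this list with that of the 10 genes was 0.73 (0.91 without WT replicate 3). In the same form, it was 0.80 (0.62) for the continuous or capillarized, 0.75 (0.48) for the lymphatic and 0.66 (0.19) for the receptor list. For the other sinusoidal list it was 0.47 (0.04), for the ligand list 0.60 (0.56) and for the lung capillary list 0.27 (0.53). Outside the endothelium it was 0.64 (0.46) for the stellate cell and fibroblast, 0.63 (0.74) for the platelet, 0.63 (0.60) for the cholangiocyte and -0.07 (0.22) for the hepatocyte list.

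Around Kdr, ligands and receptors were looked at together. Of 12 ligands of vessel receptors (VEGF and angiopoietin ligands, with Hgf, Pdgfb, Fgf2, Gdf2 and Bmp10), 10 were tested, 8 were higher, 0 passed in edgeR (2 at an unadjusted p under 0.05), and DESeq2 and voom called 1 each and edgeR without WT replicate 3 called 0. The median was 0.12 (0.08 without WT replicate 1, 0.21 without WT replicate 6 and 0.19 without Nod2-/- replicate 7), and the sum was 100.5 to 181 CPM in WT and 123 to 161 in Nod2-/- mice. Vegfa, the ligand of Kdr and the most abundant, had a log2 fold change of -0.10 (adjusted p = 0.781), Gdf2 -0.14, and Angpt1 0.86 (SE 0.22, adjusted p = 0.0651), with all 7 Nod2-/- mice above every WT mouse. Of 12 receptors for VEGF, angiopoietins, Notch ligands and ALK1 ligands, with Kdr among them, 11 were tested, 8 were higher and 3 lower, and Flt4 alone passed. The sum was 253 to 308 CPM in WT and 222 to 300.2 in Nod2-/- mice, the median was 0.19 (0.13 without WT replicate 6), and DESeq2 called 2, voom 2 and edgeR without WT replicate 3 called 4. Nrp1, a co-receptor of Kdr and the most abundant, was at 89.6, 111 and 128 CPM in WT and 39.2, 58.4 and 101 in Nod2-/- mice. For Nrp1, 6 of 7 Nod2-/- mice were below every WT mouse, and its log2 fold change was -0.72 (SE 0.19, adjusted p = 0.0673, and 0.0407 without WT replicate 3).

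Lyve1 and Gpr182 are also lymphatic genes and Vwf is also a platelet gene, so lists for these cells were read beside them. Of 8 lymphatic endothelial genes 5 were tested, 4 were higher, and Flt4 alone passed, in edgeR, DESeq2, voom and edgeR without WT replicate 3. The median was 0.30 (0.20 without Nod2-/- replicate 3), Ccl21a stayed at or under 3 counts in every mouse, Prox1, which hepatocytes also express, was the most abundant (log2 fold change 0.30), and Reln had -0.28. The summed level was 141 to 286 CPM in WT, highest in replicate 3, and 173 to 277 in Nod2-/- mice. Reln had 169 CPM in WT replicate 3 and 69.2 or less in the other WT mice, so the rank of that mouse rests on Reln. Of 9 megakaryocyte and platelet genes 3 were tested and all 3 were higher, with a median of 0.81. In edgeR 0 passed (2 at an unadjusted p under 0.05), in DESeq2 2, in voom 0 and without WT replicate 3 in edgeR 0. Clec1b, the most abundant, which Kupffer cells also express, had a log2 fold change of 0.77 (adjusted p = 0.0995), and Itga2b 0.81 (adjusted p = 0.0923). The summed platelet level was 6.94 to 12.2 CPM in WT and 10.5 to 32.3 in Nod2-/- mice, with Nod2-/- replicates 3 to 7, the mice high in Vwf, above every WT mouse. Its part in the level of Vwf was not tested.

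The sums of Kupffer cell and of neutrophil markers were both highest in Nod2-/- replicate 7. Of 12 Kupffer cell genes, all tested, 11 were higher, with a median of 0.51 (0.24 without Nod2-/- replicate 7), and 0 passed in edgeR, DESeq2, voom or edgeR without WT replicate 3 (3 at an unadjusted p under 0.05). Their sum was 338 to 513 CPM in WT and 402 to 915 in Nod2-/- mice, highest in WT replicate 3 and in Nod2-/- replicate 7, the same mice as for the sum of the 10 endothelial genes, and the r of their mean log2 CPM with that of the 10 was 0.64 over 13 mice. Slc40a1 was the most abundant (log2 fold change 0.06), and Cd5l had 0.79 and Marco -0.85. With the Kupffer cell level in the model, Pecam1 had a log2 fold change of 0.37 (adjusted p = 0.207), Stab1 0.33 (adjusted p = 0.301) and Vwf 1.22 (adjusted p = 0.158), and 38 genes passed in place of 157. Of 10 neutrophil genes 3 were tested in edgeR, all higher, with a median of 4.85. Of these, 0 passed in edgeR (3 at an unadjusted p under 0.05), and 0 passed in voom and 0 in edgeR without WT replicate 3. DESeq2, with its own filter, called 5 of the 10. The neutrophil sum was 3.57 to 8.44 CPM in WT and 5.55 to 992 in Nod2-/- mice, with 6 of 7 Nod2-/- mice above every WT mouse, and replicate 7 had the highest value and the next mouse 41.3. S100a9, the most abundant, had a log2 fold change of 4.85 (adjusted p = 0.0656), and without Nod2-/- replicate 7 it had 1.92 (adjusted p = 0.0536), which was also the median of the 3 genes then. The part of neutrophils in the endothelial levels of that mouse was not tested.

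RNA of lung epithelial genes was found in livers of both genotypes. Of 15 lung epithelial genes 8 were tested and 7 were lower in Nod2-/- mice, with a median of -1.93 (-1.10 without WT replicate 4), and 0 passed in edgeR (5 lower at an unadjusted p under 0.05), 6 in DESeq2, 0 in voom and 3 in edgeR without WT replicate 3. Cyp2f2, which hepatocytes also express, was the most abundant (log2 fold change -0.38) and made up 84.5% or more of the sum in every mouse, which was 769 to 1378 CPM in WT and 311 to 1172 in Nod2-/- mice. Without Cyp2f2 the other 14 genes summed to 15.1 to 214 CPM in WT, with WT replicates 2, 3 and 4 highest, and to 3.44 to 35.9 CPM in Nod2-/- mice. Sftpa1, a surfactant protein, had a log2 fold change of -2.15 (adjusted p = 0.0656), and Napsa 0.54. The r of the 14-gene sum, as log2, with the mean of the 10 endothelial genes was 0.20. Of 10 genes of lung capillaries, 7 were tested, 6 were higher, and 0 passed in edgeR (0 at an unadjusted p under 0.05), DESeq2, voom or edgeR without WT replicate 3, with a median of 0.27 (0.40 without WT replicate 5). Hpgd, the most abundant, had -0.47 and Gpihbp1 0.43, and the sum was 98.2 to 182 CPM in WT and 90.7 to 168 in Nod2-/- mice. With WT replicates 2, 3 and 4 left out, Pecam1 had a log2 fold change of 0.53 and Vwf 1.18, and 0 of the 10 genes passed.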

How the data were processed

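Per the submitters' processing notes, the authors trimmed reads with Trimmomatic 0.33 and aligned them with TopHat2 2.1.1 to GRCm38 (GENCODE M16 in the paper), and the values analysed are the deposited raw counts per gene and mouse. The counting program and its strand setting are not given in the sources used here, and 5 of the 10 genes share exonic bases with a gene of the opposite strand, which for Stab1 and Gpr182 is protein-coding. Of the table, 1 line without a gene ID was left out.

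Counts were filtered with filterByExpr, scaled by TMM and compared between genotypes with the two-sided quasi-likelihood test of edgeR 4.0.16 (R 4.3.3) over all genes, with Benjamini-Hochberg adjustment and a threshold of 0.05. DESeq2 1.42.0 and limma 3.58.1 (voomWithQualityWeights) were alternatives, as were RLE scaling, other filters, a robust fit, a replicate block, covariates and leaving out mice. CPM used TMM library sizes, and log2 CPM a prior count of 2. Exact permutation p-values were for single genes and not adjusted. Exon lengths and positions came from GENCODE M21, and the 36 pairs of libraries of a genotype all differed beyond counting error. Cd34, Lyve1 and Vwf had medians of 29.5, 51.5 and 62.5 counts in WT mice.

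The members and lists were chosen with earlier results of these data known. Named genes were all 10 members, Nod2, the 5 most alike genes and, per list, the genes past the threshold (all if at most 6, otherwise 3 per direction), the most abundant and the lowest p in each direction. The 20 lists were other sinusoidal, pan-endothelial, continuous or capillarized, arterial and venous, lymphatic and lung capillary endothelium, ligands (VEGF, angiopoietin and others), receptors, Kupffer cell, stellate cell and fibroblast, megakaryocyte and platelet, hepatocyte, cholangiocyte, lung epithelium, adipose, skeletal muscle, T cell, B and plasma cell, neutrophil and erythroid. A platelet list gene is not reported here and was left out of its list. Together the lists held 224 genes outside the 10, of which 165 were tested and 3 passed, all higher (Flt4, Rgs5 and Sox9).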

Additional observations from a re-analysis of the deposited data

Results flagged for a closer look

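On the log2 scale, the summed level of the 10 endothelial genes had 1 WT mouse apart from the rest. WT replicate 3 had 293 CPM, and its gap to the next WT mouse was 0.646 of the whole WT range, above the 95% limit of Dixon's test for 6 mice. Of the 22 groups looked at (each gene and the sum in each genotype), 1 was beyond its limit in log2 CPM, and chance gives about 1 in 20. In CPM without the log, 4 were: this sum (0.686), Pecam1 (0.660) and Cd34 (0.627) for WT replicate 3, and Oit3 for Nod2-/- replicate 6 (0.601), so the number depends on the scale. The same mouse was the highest WT mouse in Pecam1, Stab1 and Cd34, which passed the edgeR threshold when it was left out. Why this mouse differs was not tested.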

How the results depend on the processing

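Of the 10 genes, 7 kept their direction in all 26 alternatives. Counting these fold changes and the differences of mean log2 CPM at a prior count of 0.5, 243 values stayed on the same side of 0 and of the threshold, 17 crossed the threshold and 10 reversed. For each setting named here the cause was not tested.

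The number of the 10 genes past the threshold was 2 with DESeq2, 3 with voom, 1 without a filter on low counts, 1 with the replicate block, 2 without WT replicate 3 and Nod2-/- replicate 7, and from 0 to 4 when 1 mouse was left out. All genes past the threshold numbered 1154 with DESeq2, 843 with voom, 35 with the replicate block, 34 with the lung epithelium covariate, 38 with the Kupffer cell covariate, and from 41 to 1156 when 1 mouse was left out (the latter without WT replicate 3). Without a filter on low counts they numbered 149 of 27602. Alternatives chosen after seeing the data gave 567 (without WT replicate 3 and Nod2-/- replicate 7), 20 (without WT replicates 2, 3 and 4) and 17 (lung epithelium covariate without Cyp2f2). Of the 224 list genes outside the 10, those past the threshold numbered 36 with DESeq2, 17 with voom, 0 with the replicate block, 0 with the lung epithelium covariate, 1 with the Kupffer cell covariate, 14, 0 and 0 in the alternatives chosen after seeing the data, and from 0 to 24 when 1 mouse was left out. Of all genes tested, 7.26% passed with DESeq2, 6.22% with voom and 8.49% in edgeR without WT replicate 3. Single genes of the 10 with an exact permutation p under 0.05 numbered 3 with all mice, from 3 to 6 when 1 mouse was left out, and 5 without WT replicate 3 and Nod2-/- replicate 7. The share of all genes with such a p was not computed for the permutation test. In edgeR with all mice, 23.1% of all genes tested had an unadjusted p under 0.05.

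Log2 fold changes that reversed were as follows. With voom they were -0.00262 for Clec4g, 0.00891 for Vegfa, 0.028 for Reln and -0.27 for Napsa. With the replicate block they were -0.00198 for Clec4g, -0.053 for Slc40a1 and -0.21 for Napsa, while Vwf passed (adjusted p = 0.0124). With the lung epithelium covariate they were -0.10 for Clec4g, -0.015 for Kdr, 0.039 for Gdf2, -0.0014 for Slc40a1, -0.025 for Alb, 0.077 for Cyp2f2, -0.52 for Napsa and 0.062 for Mylpf, and without Cyp2f2 in that covariate 0.10 for Stab2 and 0.070 for Mylpf. With the Kupffer cell covariate they were 0.0035 for Eng, -0.11 for Slc40a1 and -0.12 for Napsa. Without WT replicate 3 and Nod2-/- replicate 7 they were 0.047 for Eng, 0.21 for Reln, -0.016 for Slc40a1 and -0.0064 for Napsa, and without WT replicates 2, 3 and 4 they were 0.14 for Stab2, 0.017 for Vegfa and 0.056 for Reln. Leaving out 1 mouse gave ranges of -0.16 to 0.040 for Stab2, -0.016 to 0.12 for Clec4g, -0.0079 to 0.13 for Kdr, -0.11 to 0.0069 for Eng, -0.21 to 0.037 for Vegfa, -0.37 to 0.11 for Reln, -0.049 to 0.12 for Slc40a1, -0.55 to 0.32 for Krt19, -0.12 to 0.075 for Mylpf (11 fits) and -0.20 to 0.12 for Ighm.

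The replicate numbers do not pair the samples: across the 6 pairs of equal number r was -0.30 to 0.30, 1 of 6 was over 0.1, and 0 of 6 WT mice were most like the Nod2-/- mouse of their own number, so the replicate block is a check only.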

Other observations

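Other cell types of the liver were followed by lists as well, with tests over all genes as before. Of 12 stellate cell and fibroblast genes, all tested, 6 were higher and 6 lower in Nod2-/- mice, with a median log2 fold change of 0.04, and 1 passed in edgeR, DESeq2, voom and edgeR without WT replicate 3. The median was -0.01, -0.03, 0.13, -0.02, 0.11 and 0.16 without WT replicates 1 to 6, and 0.13, 0.08, -0.01, 0.06, -0.01, -0.02 and 0.07 without Nod2-/- replicates 1 to 7, so its direction depended on single mice. That gene was Rgs5, a pericyte regulator of G protein signaling, which rose from 37.5, 44.0 and 47.6 CPM (lowest, median and highest WT mouse) to 47.3, 63.9 and 76.9 CPM. In all, 6 of 7 Nod2-/- mice were above every WT mouse (log2 fold change 0.55, SE 0.13, adjusted p = 0.0490). The call held without WT replicate 3 and without Nod2-/- replicates 1, 3 and 4, and adjusted p was 0.0603 to 0.131 in the other 9 fits without 1 mouse. Dcn, the most abundant, had 0.20 and Lrat -0.30, and the sum was 303 to 401 CPM in WT and 304 to 422 in Nod2-/- mice.

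Of 8 cholangiocyte genes 6 were tested, 4 were higher and 2 lower, with a median of 0.21 (0.43 without WT replicate 6). Sox9, a transcription factor of bile duct cells, alone passed in edgeR, and 1 gene passed in DESeq2, 2 in voom and 2 in edgeR without WT replicate 3. It rose from 1.45, 2.96 and 4.69 CPM in WT to 4.65, 7.39 and 9.91 CPM in Nod2-/- mice (log2 fold change 1.29, SE 0.25, adjusted p = 0.0324), with 6 of 7 Nod2-/- mice above every WT mouse. The call held without WT replicates 3 and 6 and without Nod2-/- replicates 1, 2, 3 and 5, and adjusted p was 0.0503 to 0.0827 in the other 7 fits without 1 mouse. Spp1, the most abundant, had 1.30 and Krt19 -0.40, Cldn4 was at or under 3 counts in every mouse, and the sum was 46.4 to 227 CPM in WT and 119 to 416 in Nod2-/- mice.

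Of 12 hepatocyte genes, all tested, 7 were higher and 5 lower, with a median of 0.08. The median was 0.13, 0.03, 0.05 and 0.15 without WT replicates 2, 4, 5 and 6, 0.04 and -0.03 without Nod2-/- replicates 4 and 6, and within 0.01 of 0 without WT replicate 3. In edgeR 0 passed (5 at an unadjusted p under 0.05), in DESeq2 3, in voom 1 and in edgeR without WT replicate 3 1. Alb, the most abundant, had 0.21, Trf 1.198 (adjusted p = 0.0875) and Cyp2e1 -0.94 (adjusted p = 0.0777, and 0.0398 without WT replicate 3), and the sum was 92939 to 129302 CPM in WT and 95600 to 189777 in Nod2-/- mice. Of 7 erythroid genes 5 were tested and 4 were higher, with a median of 1.55, and 0 passed in edgeR (4 at an unadjusted p under 0.05), 5 in DESeq2, 0 in voom and 0 without WT replicate 3. Hbb-bs, the most abundant, had 1.42, Hba-a1 1.70 and Alas2 -0.39, and the sum was 306 to 523 CPM in WT and 376 to 1160 in Nod2-/- mice.

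Of 8 adipose genes 3 were tested and 2 were higher, with a median of 1.05 (0.56 without Nod2-/- replicate 4), and 0 passed in edgeR (1 at an unadjusted p under 0.05), 1 in DESeq2 and 0 in voom and without WT replicate 3. Car3, which liver also expresses, was the most abundant and had -1.01, Fabp4 had 1.05, Plin1 and Lep were at or under 3 counts in every mouse, and the sum was 1580 to 7917 CPM in WT and 437 to 5231 in Nod2-/- mice. Of 8 skeletal muscle genes 1 was tested, Mylpf (log2 fold change -0.01, and -0.12 to 0.08 in the 11 fits without 1 mouse that tested it, above 0 without WT replicates 2 and 6 and without Nod2-/- replicates 1, 4 and 6, and not tested without Nod2-/- replicates 5 and 7), 7 were at or under 3 counts in every mouse, Acta1, Myh4 and Myl1 had 0 counts, and the sum was 0.491 to 0.860 CPM in WT and 0.421 to 1.05 in Nod2-/- mice. Of 8 T cell genes 2 were tested, Cd4 (0.26) and Lck (0.56), and the sum was 3.57 to 5.53 CPM in WT and 2.74 to 10.8 in Nod2-/- mice. Of 7 B and plasma cell genes 4 were tested and 3 were higher, with a median of 0.26. Without Nod2-/- replicates 3, 4, 5, 6 or 7 only 3 of the 4 genes were tested, and their median was 0.07, -0.04, 0.15, 0.13 and -0.00299, beside 0.07 for the same 3 genes in all mice, so its direction turned without replicates 4 and 7. Ighm, the most abundant, had -0.02 and Cd79b 0.97, and the sum was 49.1 to 85.1 CPM in WT and 31.8 to 110 in Nod2-/- mice. In the muscle, T cell and B cell lists 0 passed in edgeR (1 at an unadjusted p under 0.05, in the B cell list), DESeq2, voom or edgeR without WT replicate 3.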
